A study of Mus musculus with 9 samples.

Results

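Hindgut RNA from mouse embryos in which Ednrb was mutated in NCC cells was compared with hindgut RNA from wild type embryos, and the differences were sorted by the function of the genes. The comparison used 6 of the 9 Affymetrix MOE430 version 2 arrays of the study, 3 arrays per group. The members are the 18193 genes read by at least 1 probe set that names that gene alone, each represented by its brightest probe set. They were grouped into 74 functional lists and 18 cell type lists, which hold 5034 of them.

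The mutant group carried the genotype label Ednrb-FLEX(NCC-/-) and is called Ednrb NCC null here (arrays 2, 5 and 6). The wild type group was labelled wt (arrays 1B, 1C and 1D). The remaining group, Ednrb -/- (arrays 29, 37 and 41), was homozygous for a lacZ allele, and is called Ednrb null here. Its arrays enter the shared estimate of the spread behind every test, and they serve to test the difference between the mutants. Called genes set against Ednrb null below were chosen on the Ednrb NCC null arrays that both comparisons share. Their differences between the mutants are therefore not independent of the call against wild type. All embryos were taken at embryonic day 14, or 14.5 according to the series text, and the RNA came from the terminal colon. The labels do not spell out NCC, name the driver of the recombination or give the strain, and they do not say whether an array stands for 1 embryo or a pool, so a p-value reflects the spread of these arrays alone. Array numbers below always run in the order 2, 5, 6 for Ednrb NCC null and 1B, 1C, 1D for wild type.

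Ednrb encodes the endothelin receptor type B. Neural crest cells that enter the gut use it to stay undifferentiated and mobile until they reach the end of the colon, and its loss leaves the distal bowel without enteric neurons. The colon of this stage also holds endoderm that is turning into columnar epithelium, and mesenchyme that forms smooth muscle and connective tissue. Epithelium and mesenchyme signal to each other through Hedgehog, BMP, Wnt and Notch ligands. The maturing epithelium builds microvilli, absorbs sugars, ions and peptides, and conjugates foreign compounds with glutathione, sulfate or glucuronic acid. The RNA came from whole tissue, so fewer cells of a type and less RNA per cell cannot be told apart.

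Ednrb itself did not pass the test. Its log2 intensity was 11.15, 11.32 and 11.04 in Ednrb NCC null and 11.08, 10.95 and 11.05 in wild type, a difference of 0.15 (SE 0.14, limma adjusted p = 0.653). Ednrb null lay lower, at 9.13 ± 0.33 (SD, n = 3). Other cells of the hindgut can express Ednrb, and whether the probes lie in the recombined part of the gene is not given, so this level does not check the label of Ednrb NCC null. Genes of the enteric neural crest did separate the groups. Ret, through which enteric progenitors sense GDNF, lay at 6.0, 6.79 and 6.04 in Ednrb NCC null and at 8.91, 9.94 and 9.91 in wild type (adjusted p = 0.000721).

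Of the 18193 genes, 674 (3.70%) were called higher and 228 (1.25%) lower in Ednrb NCC null than in wild type, 902 (4.96%) in all, at an adjusted p under 0.05. In every called gene all arrays of one group lay above those of the other, as they did in 21.9% of all genes tested. The difference reached 2-fold for 79 of the higher and 37 of the lower genes, and the median log2 difference was 0.59 among the higher and -0.62 among the lower. Over all genes the median was 0.02, with 56.0% of them above 0. The counts rested on single arrays: without Ednrb NCC null 2, 5 or 6 there were 474, 230 and 172 higher genes, without wild type 1B, 1C or 1D 213, 416 and 888, and without Ednrb null 29, 37 or 41, which share the estimate of the spread, 503, 690 and 613. The lower genes numbered 244, 104 and 96 without Ednrb NCC null 2, 5 or 6, and 139, 236 and 211 without wild type 1B, 1C or 1D.

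Array medians lay between 112 and 116, and the log2 ratio of 3' to 5' Actb control probe sets spanned 1.03 to 1.40 in Ednrb NCC null and 1.08 to 1.32 in wild type. Averaged over the Y-linked Uty, Kdm5d and Eif2s3y, log2 intensity was 3.74, 8.80 and 5.76 in Ednrb NCC null and 7.65, 9.38 and 7.82 in wild type. With that mean as a covariate 366 genes were higher and 170 lower, so sex or the mixture of sexes moved with the counts, and its part in the result was not tested. Of the 261 called genes that the naming rule picked, 84 kept their call in all of 20 other settings that tested them. The settings included leaving out any 1 array. The setting without the dimmest 40% of genes did not test dim genes, so their calls rest on the remaining settings. The genes given array by array below are among those 84 unless a lost call is stated.

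Among the functional lists, glutathione and antioxidant enzymes had the largest share of higher genes (25.5%), followed by the Ly6 and Lypd family (4 of 21), and Hedgehog signalling had the largest share of lower genes (17.6%). The order of rises depended on dim members. Without the dimmest 40% of genes, 11 of 36 glutathione and 1 of 8 Ly6 and Lypd genes rose. The same setting gave 5 of 12 antimicrobial and mucosal defence genes, 8 of 28 serine proteases and serpins and 7 of 27 detoxification enzymes. The functional lists together held 4917 genes, of which 282 (5.74%) were called. Of the 74 lists, 29 had rises only, 13 had falls only, 25 had both and 7 had no call. Of all 902 called genes, 602 belonged to no list, functional or cell type.

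**Figure D1:**
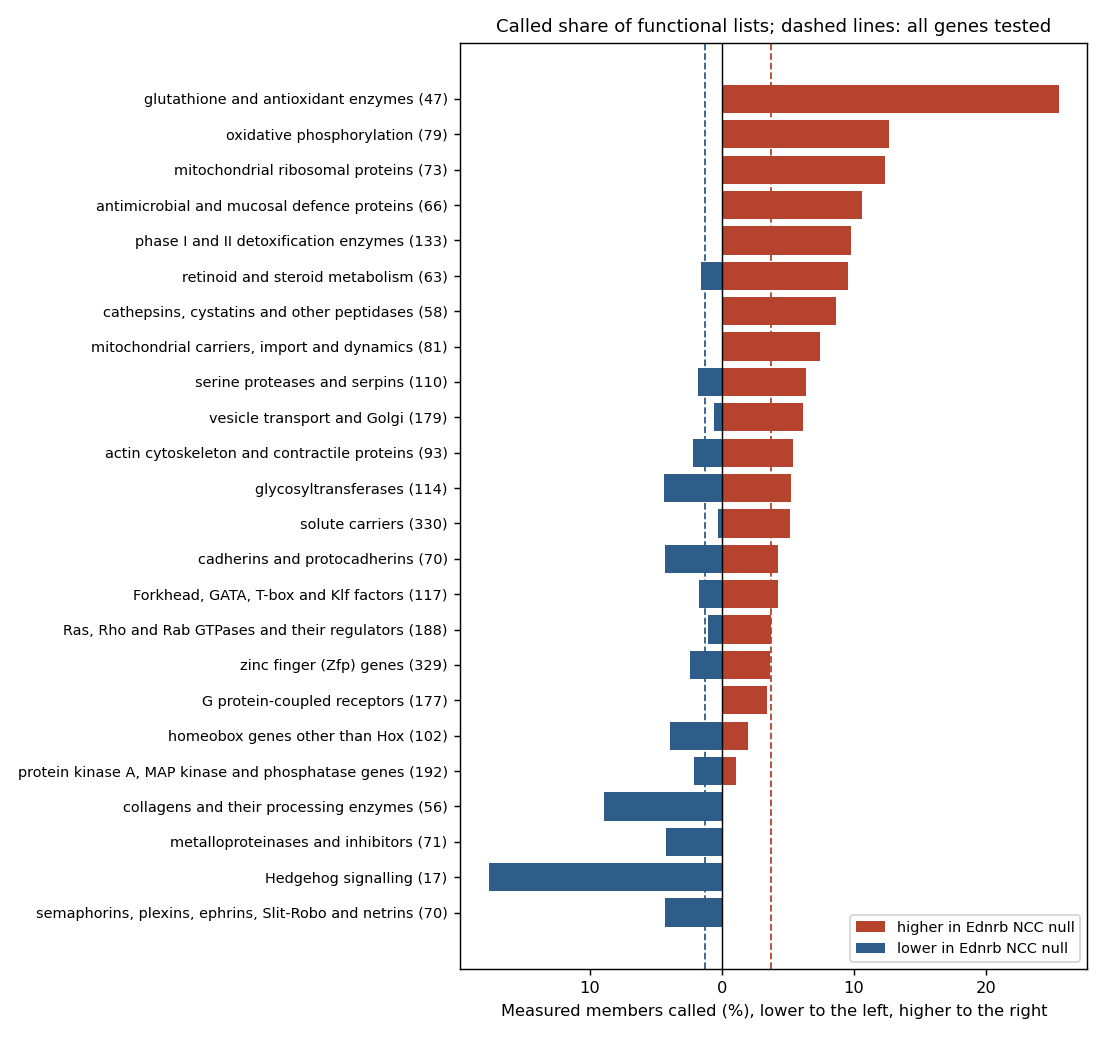
Share of the measured members of a functional list called higher (red, right) or lower (blue, left) in Ednrb NCC null than in wild type, with the number of members in brackets; lists with at least 5 higher or 3 lower members are shown. The dashed lines mark the shares over all genes tested, 3.70% higher and 1.25% lower; glutathione and antioxidant enzymes reach 25.5% higher and Hedgehog signalling 17.6% lower.

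Enzymes that use glutathione were higher in Ednrb NCC null. Of 47 measured glutathione and antioxidant genes 12 rose (25.5%, against 3.70% of all genes), 0 fell and 35 did not pass. The list median was 0.17, and 39 of 47 members lay above 0. The rises came from the microsomal, alpha, mu, omega and theta classes of transferase, with glutathione synthetase and a peroxiredoxin beside them. Without Ednrb NCC null 2, 5 or 6 the rises numbered 10, 6 and 3, and without wild type 1B, 1C or 1D 7, 7 and 12. Against Ednrb null, 9 members were higher and 1 lower in Ednrb NCC null (4.46% and 2.07% of all genes).

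Mgst2, a microsomal glutathione S-transferase, was at 8.69, 9.07 and 8.98 in Ednrb NCC null and at 6.54, 6.94 and 7.44 in wild type. The groups stood over 1 log2 unit apart, a 3.84-fold rise (SE of log2 0.20, adjusted p = 0.000631), and Ednrb null lay between them at 7.89 ± 0.23 (difference between the mutants 1.02, adjusted p = 0.0133). Its relative Mgst3 was at 11.62, 11.90 and 11.89 against 10.60, 10.68 and 10.94, and was 2.09-fold higher (adjusted p = 0.000963). Another, dimmer probe set of Mgst3 gave a log2 difference of 0.11. Gsta3, an alpha class transferase, was at 7.53, 7.58 and 7.81 against 5.71, 6.29 and 6.39 (2.85-fold, adjusted p = 0.00355), and a further probe set gave 0.81.

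The mu class genes form a cluster on chromosome 3, in which the neighbours Gstm3, Gstm2 and Gstm1 were all called higher. Gstm1 was at 10.19, 10.54 and 10.57 against 9.38, 9.72 and 9.85, and its 3 other probe sets gave 0.92, 0.51 and 0.48. Gstm3 rose by 0.55 on the log2 scale and Mgst1, another microsomal transferase, by 0.62, with another probe set of Mgst1 at -0.08. Coding sequences in the mu cluster are alike, so a probe set may read more than 1 of its genes. Gstm1, Gstm3 and Mgst1 each lost the call without Ednrb NCC null 5 or 6 (adjusted p from 0.051 to 0.0513).

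**Figure D2:**
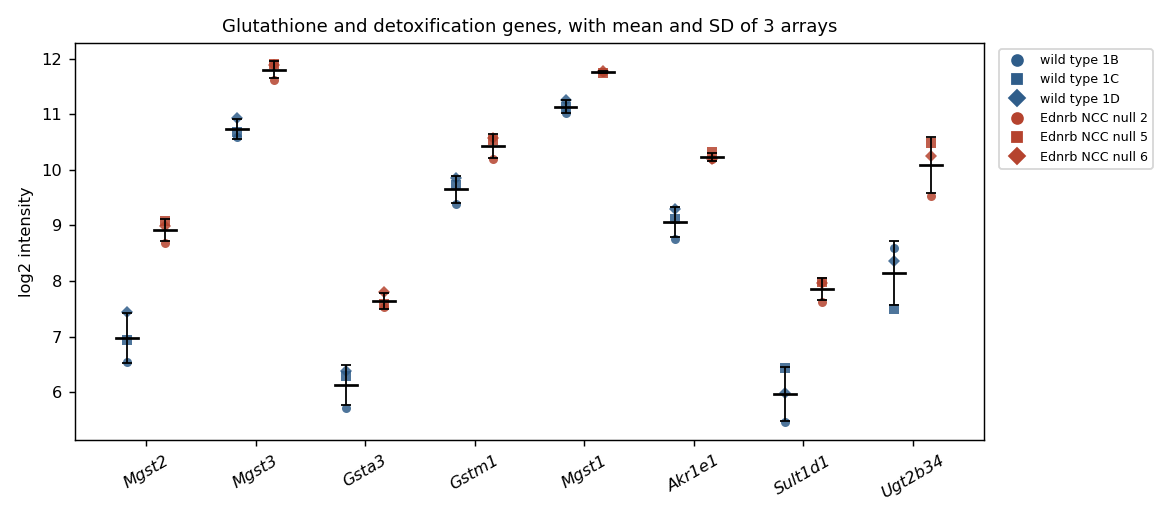
Log2 intensity (vertical axis) of 8 conjugating and detoxifying enzyme genes (horizontal axis) in the 3 wild type arrays (blue) and the 3 Ednrb NCC null arrays (red); each symbol is 1 array, bars are the mean and SD of 3 arrays. In all 8 genes the lowest red point lies above the highest blue point.

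Upstream sequences of these genes were read from RefSeq (GRCm38.p6), because many glutathione transferase genes are textbook targets of NRF2, which binds the antioxidant response element. The letters TGACNNNGC were searched on both strands in windows of 250 bases before to 50 after each gene start. They were found in 12.4% of all 32851 windows. Counted by gene, with a match in any of its windows, they were found in 16.1% of the 14368 tested genes with a sequence. The count by gene gave 8 of 41 genes of the glutathione list and 3 of the 11 risen members with a sequence. The 250 bases before the start of those 3 genes, Gsta3, Gstm5 and Mgst1, are printed 5′ to 3′ on the plus strand with the match in capitals, to show how the matches differ in their middle letters and distance from the start. Mgst1 holds the match on the reverse strand. Gstm5, at a log2 difference of 0.41 (adjusted p = 0.0477), is named for its sequence, outside the naming rule. Gsta3 lies at chr1:21240335-21240584, Gstm5 at chr3:107895604-107895853 and Mgst1 at chr6:138140277-138140526.
Gsta3: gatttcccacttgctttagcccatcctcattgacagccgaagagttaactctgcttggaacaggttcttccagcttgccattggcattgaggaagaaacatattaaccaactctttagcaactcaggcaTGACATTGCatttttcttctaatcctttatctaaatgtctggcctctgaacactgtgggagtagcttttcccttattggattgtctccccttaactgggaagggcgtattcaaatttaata
Gstm5: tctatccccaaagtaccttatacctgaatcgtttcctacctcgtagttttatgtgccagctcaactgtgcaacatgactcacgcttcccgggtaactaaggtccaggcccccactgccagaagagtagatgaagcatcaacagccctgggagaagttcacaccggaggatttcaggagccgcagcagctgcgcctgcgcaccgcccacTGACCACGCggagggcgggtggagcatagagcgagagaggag
Mgst1: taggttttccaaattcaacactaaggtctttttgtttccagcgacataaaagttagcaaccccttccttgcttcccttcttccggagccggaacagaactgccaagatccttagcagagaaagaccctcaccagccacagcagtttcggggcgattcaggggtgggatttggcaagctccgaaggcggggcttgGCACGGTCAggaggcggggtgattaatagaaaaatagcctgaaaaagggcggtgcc
The matches start at positions -121, -42 and -56 relative to the gene start. A match is a description of the letters and not a site. The letters of the HNF4 motif CAAAGTCCA, a factor of gut epithelium, were found in 0.475% of all windows. Counted by gene, they were found in 0.592% of tested genes with a sequence and in 0 of 41 genes of the glutathione list. In the list of phase I and II enzymes described next they were found in 7 of 105 genes and in 1 of the 10 risen members with a sequence. The antioxidant element letters were found in 8 of those 105 genes (7.62%) and in 0 of the 10 risen members.

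Other enzymes that oxidise, reduce or conjugate foreign compounds rose as well. Of 133 phase I and II detoxification genes 13 rose (9.77%, against 3.70% of all genes), 0 fell and 120 did not pass, with a median of 0.08. Sult1d1, a sulfotransferase, was at 7.63, 7.98 and 7.97 in Ednrb NCC null and 5.46, 6.43 and 5.99 in wild type, a 3.74-fold rise (adjusted p = 0.00354, other probe set 1.55). Akr1e1, an aldo-keto reductase, was at 10.19, 10.32 and 10.20 against 8.76, 9.11 and 9.29 (2.27-fold, adjusted p = 0.000753). These 2 enzymes parted in Ednrb null, where Sult1d1 stayed at 6.06 ± 0.54 (1.80 below Ednrb NCC null, adjusted p = 0.00382) and Akr1e1 was at 10.13 ± 0.14 (0.11 below, adjusted p = 0.707).

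Ugt2b34, which attaches glucuronic acid, was at 9.53, 10.48 and 10.24 against 8.58, 7.49 and 8.37, a 3.83-fold rise (adjusted p = 0.011, other probe set 2.02), and at 7.21 ± 0.59 in Ednrb null. It belongs to a family of near-identical genes, which its probes may share. The arylamine acetyltransferase Nat2, the epoxide hydrolase Ephx2, the cytochrome P450 Cyp4f13 and the retinaldehyde dehydrogenase Aldh1a1 were higher by 0.50, 0.41, 0.44 and 0.47 on the log2 scale. Each of these 5 genes lost its call without at least 1 of Ednrb NCC null 2, 5 or 6, Ednrb null 29 and wild type 1B or 1C (adjusted p from 0.0526 to 0.135). The list kept 10, 3 and 3 rises without Ednrb NCC null 2, 5 or 6, and 4, 7 and 15 without wild type 1B, 1C or 1D.

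Markers of gut epithelium moved with these enzymes. All 28 measured epithelial markers lay above 0 (median 0.48), 10 rose and 0 fell. Their summed intensity was 50688 to 57899 in wild type, 68796 to 84056 in Ednrb NCC null and 42031 to 57953 in Ednrb null, so the Ednrb NCC null arrays did not overlap either group. The share of markers called was 35.7%, and their median of 0.48 stood beside 0.17 for the glutathione list and 0.08 for the detoxification list. Of the defining markers, Epcam had a log2 difference of 0.34 and Cdh1 of 0.13, neither past the test. The part of epithelial content in the rises of enzymes, transporters and defence genes was not tested. Lypd8 and Phgr1 kept their calls in every setting that tested them. In contrast, Agr2, Muc13, Ceacam1, Vil1, Gpa33, Lgals4, Cdx2 and Krt8 each lost the call without at least 1 array (limma adjusted p from 0.0501 to 0.171). Rises numbered 7, 3 and 2 without Ednrb NCC null 2, 5 or 6, 2, 4 and 9 without wild type 1B, 1C or 1D, 6 without Ednrb null 29 and 3 with the Y-linked covariate.

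Some genes listed under mucosal defence were among the largest rises. Of 66 genes in the antimicrobial and mucosal defence list 7 rose (10.6%, against 3.70% of all genes), 0 fell and 59 did not pass (median 0.04). The list was drawn by gene symbol patterns, so members such as S100a6 and S100a1 need not have a defence role. Lypd8, a lipid-anchored colon protein that keeps flagellated bacteria away from the epithelium, was at 9.48, 10.27 and 10.27 in Ednrb NCC null and at 6.94, 7.15 and 8.01 in wild type. This was the largest rise of any named gene, 6.23-fold (SE of log2 0.28, adjusted p = 0.000721), and Ednrb null stayed near wild type at 7.58 ± 0.32. The calcium-binding S100a6 was at 12.51, 12.71 and 12.74 against 11.65, 11.62 and 11.98 (1.87-fold, adjusted p = 0.00673).

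The peptidoglycan recognition protein gene Pglyrp1 was 3.34-fold higher, and S100a1, S100a9 and the lectin gene Itln1 rose by 0.93, 1.11 and 0.60 on the log2 scale. These 4 lost their calls without at least 1 of Ednrb NCC null 5 or 6 and wild type 1B or 1C (adjusted p from 0.051 to 0.0983). The list had 2 rises without Ednrb NCC null 5, 4 without Ednrb NCC null 6 or wild type 1B, and 11 without wild type 1D. Among 21 genes of the Ly6 and Lypd family, small lipid-anchored surface proteins, 4 rose, which besides Lypd8 included Psca at 7.54, 7.25 and 7.41 against 6.32, 6.25 and 6.53 (2.05-fold, adjusted p = 0.00259). Gsdmc2, a gasdermin gene, was at 5.91, 5.81 and 6.51 against 3.53, 4.24 and 4.71, near the dim end of the arrays, and was 3.78-fold higher (adjusted p = 0.00398).

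Genes of absorption rose in small numbers within large families. Among 330 solute carriers 17 rose (5.15%) and 1 fell (median 0.03), counts that dropped to 11, 6 and 4 rises without Ednrb NCC null 2, 5 or 6, to 5 without wild type 1B, 8 without wild type 1C and 10 without Ednrb null 29, and to 6 with the Y-linked covariate. Slc5a1, the sodium-glucose cotransporter of enterocytes, was at 7.64, 7.82 and 8.03 against 6.62, 6.64 and 6.93 (2.14-fold, adjusted p = 0.000883, other probe set 1.14). Slc44a4 and Slc44a3, choline transporter-like genes, were higher by 0.90 and 0.82 on the log2 scale (adjusted p = 0.0037 and 0.00598). Slc25a31, a mitochondrial ADP/ATP carrier, was higher by 1.30 at levels under 5.7.

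Gucy2c, the guanylin receptor that drives fluid secretion, was at 7.54, 7.98 and 7.99 against 6.12, 6.27 and 6.81 (2.70-fold, adjusted p = 0.00272). S100g, a calcium-binding protein of vitamin D responsive epithelium, was at 8.45, 8.43 and 8.63 against 6.67, 7.32 and 7.01 (2.83-fold, adjusted p = 0.000673). Both were also higher than in Ednrb null, by 1.21 (adjusted p = 0.00514) and 0.86 (adjusted p = 0.00949), on the same Ednrb NCC null arrays. Single genes of the cell surface and its actin were called higher. Clic5, a protein of the microvillus base, was 3.12-fold higher (adjusted p = 0.000164), Eps8l3, an actin regulator, 3.60-fold (adjusted p = 0.00189) and Pls1, the bundling protein fimbrin, by 0.88 on the log2 scale (adjusted p = 0.00189). The list of 93 actin and contractile genes, which holds Pls1, had 5 rises and 2 falls (5.38% higher against 3.70% of all genes, median 0.04), and 1 rise without Ednrb NCC null 5 or 6 or wild type 1B.

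Of 110 serine proteases and their serpin inhibitors 7 rose (6.36%, against 3.70% of all genes), 2 fell (1.82%, against 1.25%) and 101 did not pass (median 0.03). The list had 2 rises left without Ednrb NCC null 5 or 6 and 3 without wild type 1B. Prss32, a serine protease, was at 8.66, 9.21 and 8.87 against 6.73, 6.93 and 7.41, 3.71-fold higher (adjusted p = 0.000346, other probe set 1.40). Klk13, a kallikrein, was at 8.44, 8.05 and 8.30 against 6.84, 7.33 and 6.82 (2.40-fold, adjusted p = 0.00206), and was higher still in Ednrb null (difference between the mutants -0.62, adjusted p = 0.0473). Serpina1c, an antitrypsin gene with near-identical copies, fell by 1.14 (adjusted p = 0.000883).

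Among 58 cathepsins, cystatins and other peptidases 5 rose (8.62%, against 3.70% of all genes) and 0 fell (median 0.09). The dipeptidyl peptidase Dpp4 was at 9.37, 9.90 and 9.81 against 8.31, 8.65 and 8.87 (2.12-fold, adjusted p = 0.00839), and 3 further probe sets gave 0.51, 1.84 and 0.56. Meprin gene Mep1a, another brush border peptidase, was higher by 0.87 and lost its call with the Y-linked covariate and when wild type 1C and Ednrb NCC null 2 were both left out. The list had 2 rises without Ednrb NCC null 2 or 6, 3 without wild type 1B or 1C, and 1 with the Y-linked covariate.

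Of several larger gene families a few members each passed the test, at shares from below to well above those of all genes. Of 48 claudin, tetraspanin and tight junction genes 4 rose (8.33%, against 3.70% of all genes). The list had 1 rise without Ednrb NCC null 5 and 2 without Ednrb NCC null 6 or wild type 1B. Cldn8, a barrier claudin of the colon, was at 11.23, 11.37 and 11.36 against 10.44, 10.53 and 10.31 (1.85-fold, adjusted p = 0.00934). Of 84 potassium channel genes 4 rose (4.76%), led by Kcne3, a channel subunit of intestinal crypts, at 1.14 (adjusted p = 0.00317). Among 177 G protein-coupled receptors 6 rose, a share of 3.39% below that of all genes, with the UDP receptor P2ry6 at 1.20 (adjusted p = 0.00233). Glycosyltransferases went both ways, with 6 rises and 5 falls of 114 (5.26% and 4.39%, against 3.70% and 1.25% of all genes). Mgat4a and Galnt6 rose by 0.76 and 0.70 and Fut10 fell by 0.83. Other probe sets gave 0.34 for Mgat4a, 0.05 and 0.42 for Galnt6, and -0.17 and -0.91 for Fut10.

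Mitochondrial genes shifted together by a small amount. Of 79 oxidative phosphorylation genes 73 lay above 0 (92.4%, against 56.0% of all genes), with a median of 0.25. Of these 79, 10 rose (12.7%, against 3.70% of all genes), 0 fell and 69 did not pass. Of 73 mitochondrial ribosomal protein genes 65 lay above 0, with a median of 0.22, and 9 rose (12.3%) and 0 fell. The 17 genes of the tricarboxylic acid cycle had a median of 0.22 with 0 calls. The lean above 0 was not particular to mitochondrial genes. Cytosolic ribosomal proteins had 35 of 40 genes above 0 (87.5%), with a median of 0.10 and 0 calls. The proteasome had 34 of 39 genes above 0 (87.2%), with a median of 0.19 and 2 rises (5.13%).

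Array by array, the median of the oxidative phosphorylation genes, set against the wild type mean of each gene, was 0.22, 0.25 and 0.26 in Ednrb NCC null and -0.11, -0.01 and 0.12 in wild type. The groups did not overlap, but wild type 1B and 1D were farther apart from each other than wild type 1D was from Ednrb NCC null. For the mitochondrial ribosome the values were 0.17, 0.22 and 0.27 against -0.17, 0.03 and 0.15. The largest called member, the cytochrome c oxidase subunit gene Cox7a1, was at 7.23, 7.54 and 7.51 against 6.49, 6.61 and 6.90 (1.69-fold, adjusted p = 0.0112). Ndufb2, of complex I, was at 12.20, 12.28 and 12.21 against 11.61, 11.73 and 11.76 (1.45-fold, adjusted p = 0.0186). Mrpl35, of the large mitochondrial ribosomal subunit, was at 11.07, 11.32 and 11.31 against 10.42, 10.51 and 10.84 (1.57-fold, adjusted p = 0.0191). Cox7a1, Ndufb2 and Mrpl35, like the 9 other named mitochondrial genes, each lost the call without at least 1 array of Ednrb NCC null, Ednrb null 29 or wild type 1B or 1C (adjusted p from 0.05 to 0.142).

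**Figure D3:**
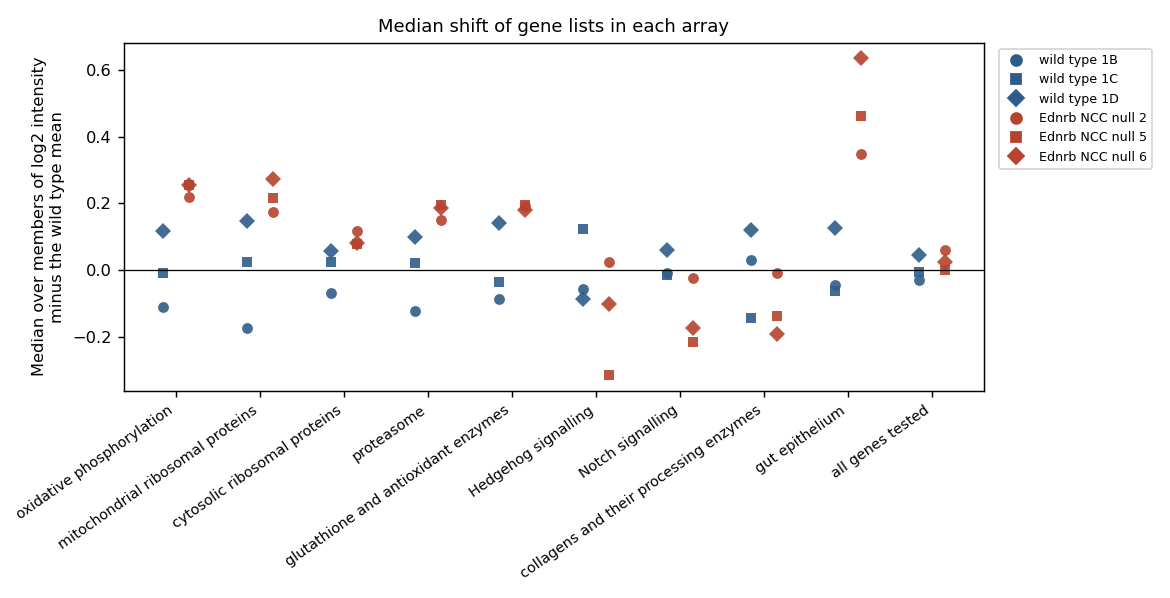
Median over the members of a gene list of log2 intensity minus the gene's wild type mean (vertical axis), for 9 lists and all genes (horizontal axis); each symbol is 1 array, wild type in blue and Ednrb NCC null in red. The red points lie above the blue ones for oxidative phosphorylation (0.22 to 0.26 against -0.11 to 0.12) and gut epithelium, while the Hedgehog points of the groups overlap.

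These calls were not stable. Without Ednrb NCC null 2, 5 or 6 the oxidative phosphorylation list had 5, 0 and 1 rises, without wild type 1B, 1C or 1D 0, 3 and 21, without Ednrb null 29 or 41 6, and with the Y-linked covariate or quantile normalization 4, while its median lay between 0.20 and 0.31. The mitochondrial ribosome had 5, 1 and 0 rises and 1, 2 and 18, and its median was 0.12 without wild type 1B. Against Ednrb null, 1 of the 79 oxidative phosphorylation genes was higher (list median 0.11), and of the ribosomal list 1 was higher and 1 lower (median 0.03). Mitochondrial carriers, import and dynamics had 6 rises among 81 genes (7.41%, against 3.70% of all genes, median 0.08). The rises numbered 2 without Ednrb NCC null 2, 3 without Ednrb null 41, and 1 without Ednrb NCC null 5 or 6 or wild type 1B or 1C.

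**Figure D4:**
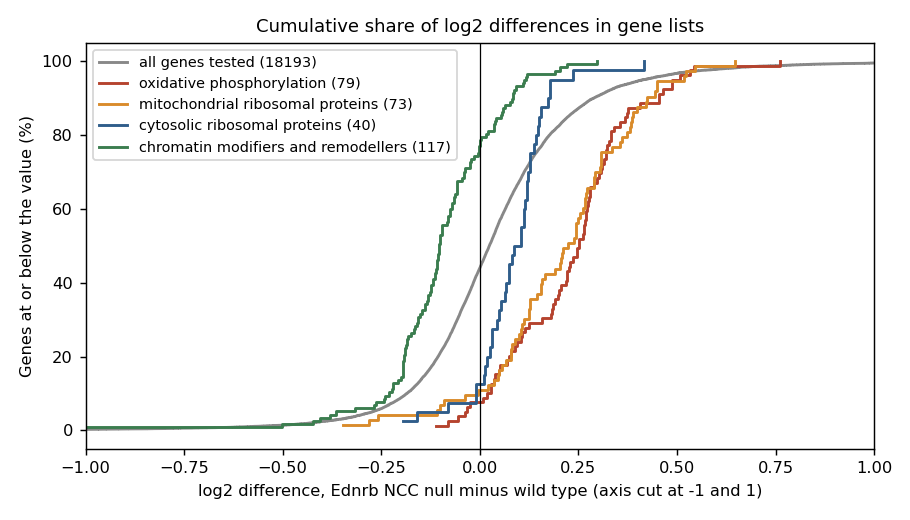
Cumulative share of genes (vertical axis, percent) by log2 difference between Ednrb NCC null and wild type (horizontal axis), for all 18193 genes and 4 lists with their numbers of genes in brackets. The oxidative phosphorylation and mitochondrial ribosome curves lie to the right of the curve of all genes (medians 0.25 and 0.22 against 0.02), and chromatin modifiers to the left (median -0.10).

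Several lists of signalling and matrix genes leaned the other way. Of 17 Hedgehog pathway genes 3 fell (17.6%, against 1.25% of all genes), 0 rose and 14 lay below 0 (median -0.13). The 3 were Gli1, the transcription factor that reports pathway activity, Hhip, a ligand-binding inhibitor, and Foxf2, a mesenchymal target. Gli1 was at 9.70, 9.89 and 9.77 in Ednrb NCC null and 10.14, 10.32 and 10.14 in wild type, 1.34-fold lower (adjusted p = 0.0205). Hhip was at 8.63, 8.19 and 8.30 against 9.07, 9.14 and 8.76 (1.54-fold, adjusted p = 0.0262), and 3 further probe sets gave -0.52, -0.49 and -0.77. Foxf2 was at 8.67, 8.27 and 8.38 against 9.33, 9.55 and 8.84 (1.74-fold, adjusted p = 0.0194), while a further probe set gave 0.03.

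All 3 were also lower than in Ednrb null, by 0.40, 0.56 and 0.76 (adjusted p = 0.0204, 0.0335 and 0.0194). That comparison shares the Ednrb NCC null arrays on which they were chosen. The Hedgehog list had 0 falls without Ednrb NCC null 6 or wild type 1B, 1 without Ednrb NCC null 5 or wild type 1C, and a median of -0.03 without Ednrb NCC null 5 and -0.04 over the mean of all probe sets. Of 22 Notch pathway genes 2 fell (9.09%, against 1.25% of all genes), the receptor Notch1 by 0.37 and the ligand Dll1 by 0.53. The list median was -0.13. The Notch list had 3, 1 and 0 falls without Ednrb NCC null 2, 5 or 6 and 1 without any wild type array. The Wnt list of 66 genes had a median of -0.12 and 1 fall, Vangl1 of the planar polarity branch at -0.47. Notch1, Dll1 and Vangl1 each lost the call without at least 1 array, as did the 3 Hedgehog genes (adjusted p from 0.0534 to 0.113).

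Bmp4, a ligand made in gut mesenchyme, was at 11.88, 12.07 and 11.83 in Ednrb NCC null and 12.47, 12.47 and 12.49 in wild type. The fall of 0.55 (1.47-fold, SE 0.08, adjusted p = 0.00519) was small but clear of the spread, and Ednrb null lay with wild type at 12.54 ± 0.06 (difference between the mutants -0.61, adjusted p = 0.00266). It was the single call among 67 TGF-beta, BMP and activin genes, whose median was -0.01. Ccnd1, the G1 cyclin, was at 10.69, 10.66 and 10.73 against 11.22, 11.28 and 11.60 (1.6-fold lower, adjusted p = 0.00702), and further probe sets gave -0.51 and -0.84. Among 36 cell cycle and replication genes it was the single fall beside 1 rise.

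Collagen genes and their enzymes had 5 falls and 0 rises among 56 (8.93%, against 1.25% of all genes, median -0.10). P4ha3, a prolyl hydroxylase subunit, was at 8.48, 8.71 and 8.25 against 9.62, 9.50 and 9.56 (2.11-fold lower, adjusted p = 0.000883), and was below Ednrb null by 0.72 (adjusted p = 0.0061). The fibril-associated collagen gene Col12a1 was at 9.35, 9.06 and 8.85 against 10.20, 10.07 and 9.93 (1.97-fold lower, adjusted p = 0.00218), and its dimmer probe sets gave -0.47, -0.13 and -0.06. Col9a3, Col2a1 and Col6a4 made up the rest, and each lost its call without at least 1 array. Col2a1 is also a marker in the cartilage list, which had 4 lower genes against Ednrb null. The part of cartilage in these falls was not tested. Col1a1, Col1a2 and Col3a1, which are among the fibroblast markers, were not called. The collagen list had 2 falls without Ednrb NCC null 6 or wild type 1B, and 3 without Ednrb NCC null 5, Ednrb null 29 or wild type 1C or 1D.

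Of 71 metalloproteinases and inhibitors 3 fell (4.23%, against 1.25% of all genes), all of the Adamts family of matrix proteases, and 0 rose (median -0.02). Adamts1 was at 9.59, 9.54 and 9.42 against 10.39, 10.11 and 10.45 (1.74-fold lower, adjusted p = 0.00396), Adamts19 fell by 0.96 (adjusted p = 0.00206) and Adamts3 by 0.62, the last losing its call without Ednrb NCC null 5 or 6. Fibroblast and mesenchyme markers had 0 calls among 14, with 3 of 14 above 0 and a median of -0.12, beside -0.10 for the collagen list. Among 70 guidance genes Sema4f, Epha5 and Ntn4 fell (4.29%, against 1.25% of all genes) and 0 rose (median -0.07). However, the list had 0 falls without Ednrb NCC null 5 or 6 or wild type 1B.

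Some of the largest falls belonged to no pathway of the gut. Csn3, the milk protein kappa-casein, was at 5.39, 5.65 and 5.39 in Ednrb NCC null and 8.13, 9.88 and 9.41 in wild type, the largest fall of a named gene (12.6-fold, SE of log2 0.33, adjusted p = 0.000241). Its other probe set gave -0.20. Ang, the ribonuclease angiogenin, was at 6.01, 6.15 and 6.09 against 8.04, 8.20 and 8.62 (4.6-fold, adjusted p = 3.02e-05), and 2 further probe sets gave -2.08 and -0.15. Its family has near-identical members, which the probes may share.

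Pianp, a neural membrane protein, was 4.39-fold lower (adjusted p = 2.76e-05, other probe set -0.16) and Rpgrip1, a ciliary protein of photoreceptors, 3.83-fold lower (adjusted p = 3.02e-05). The 3 other probe sets of Rpgrip1 gave 0.09, 0.21 and -0.02. In Ednrb null the 4 genes were low as well, with differences between the mutants of 0.46, 0.11, -0.01 and -0.11 (adjusted p from 0.499 to 0.978). Galc, a lysosomal galactosidase, fell by 1.42 and lay lower still in Ednrb null, by 2.19, while its other probe sets gave -0.01 and 0.05. On the rising side Itga9 gave 2.08 in its brightest probe set and 0.18 and -0.01 in the others.

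**Figure D5:**
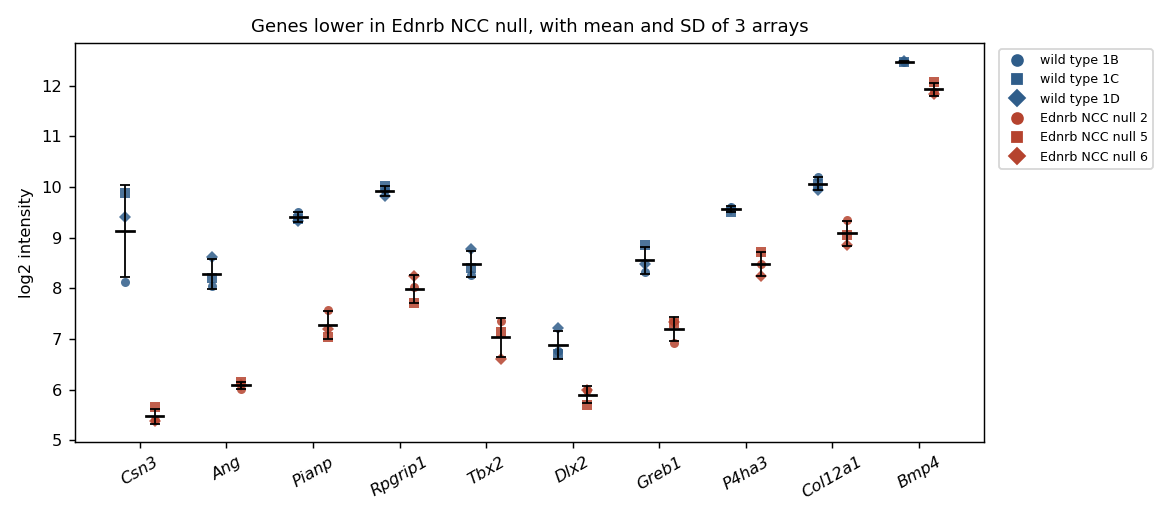
Log2 intensity (vertical axis) of 10 genes lower in Ednrb NCC null (horizontal axis) in the 3 wild type arrays (blue) and the 3 Ednrb NCC null arrays (red); each symbol is 1 array, bars are the mean and SD of 3 arrays. The arrays of the groups do not overlap in any of the 10 genes; Csn3 spans 8.13 to 9.88 in wild type and 5.39 to 5.65 in Ednrb NCC null.

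Of 102 homeobox genes outside the Hox clusters 4 fell (3.92%) and 2 rose (median -0.05), a difference between directions that was not tested. Pou3f3, a factor of neural cells, was at 5.32, 4.94 and 5.07 against 7.02, 8.11 and 7.72 (5.69-fold, adjusted p = 0.000276), and a further probe set gave 0.06. Dlx2 was at 5.99, 5.70 and 5.99 against 6.75, 6.69 and 7.21 (1.98-fold, adjusted p = 0.00272), and its neighbour in the genome Dlx1 was lower by 1.05. Dlx1 lost its call without several single arrays, and the list had 2 falls without Ednrb NCC null 5 or 6, 7 without wild type 1C and 1 without the dimmest 40% of genes. Sox10, of neural crest and glia, accounted with Sox8 for the 2 falls among 74 bHLH and Sox genes, beside 1 rise.

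Tbx2, a T-box repressor, was at 7.35, 7.14 and 6.60 against 8.26, 8.41 and 8.77 (2.73-fold lower, adjusted p = 0.00413). In the same list Nr1h4, the bile acid receptor, was at 7.19, 7.11 and 7.52 against 6.01, 6.26 and 6.62 (1.97-fold, adjusted p = 0.00934). The list of 117 Forkhead, GATA, T-box and Klf genes, which also holds nuclear receptors, had 5 rises and 2 falls (4.27% higher against 3.70% of all genes, median 0.01), and 1 rise without Ednrb NCC null 5 or 6 or wild type 1B. The 63 retinoid and steroid genes had 6 rises and 1 fall (9.52% and 1.59%, against 3.70% and 1.25% of all genes). The rises numbered 3, 1 and 0 without Ednrb NCC null 2, 5 or 6, 1 without wild type 1B and 2 with the Y-linked covariate. Of 329 zinc finger genes 12 rose and 8 fell, shares of 3.65% and 2.43% beside 3.70% and 1.25% of all genes, with a median of 0.00. Without Ednrb NCC null 2, 5 or 6 there were 8, 7 and 7 rises and 12, 5 and 3 falls, and leaving out wild type 1B gave 6 rises and 5 falls. Zfp979 fell from 6.06, 6.02 and 5.75 to 4.06, 3.55 and 3.65, near the floor of the arrays, while Zfp42, a marker of pluripotent cells, was at 6.54, 6.57 and 7.32 against 5.36, 5.45 and 5.37 (2.67-fold, adjusted p = 0.00524).

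Lists of cell maintenance held few or no calls. There were 0 calls among 18 aminoacyl-tRNA synthetases (median 0.03), 17 glycolytic genes (0.09), 27 genes of endoplasmic reticulum chaperones and the unfolded protein response (0.08), 24 p53 targets (-0.02) and 78 ubiquitin conjugating enzymes and peptidases (-0.05), as among the cytosolic ribosomal and tricarboxylic acid cycle genes above. The lowest adjusted p in these 7 lists was 0.0541, that of the ubiquitin ligase gene Ube2o, and 31 of their 221 genes had an unadjusted limma p under 0.05, 9 of them among the 17 of the tricarboxylic acid cycle. Chromatin modifiers had 1 fall among 117, with 26 members above 0 (22.2%, median -0.10, against 56.0% of all genes). The 114 splicing factors had 2 rises and 1 fall, with Snrpb2 at 0.62 and Rbm28 at -0.57. The 9 genes of the histone list had 1 fall and 0 rises, but that list is incomplete. The neighbouring histone genes H3c7 and H3c4 on chromosome 13 lay outside it and were called higher. Other probe sets gave 0.44 and 0.41 for Snrpb2 and -0.14 for Rbm28. DNA repair (38 genes), heat shock proteins (29), iron and haem handling (25), cholesterol synthesis (20), ribosome biogenesis (33), nucleotide and one-carbon metabolism (31), apoptosis regulators (61) and clock genes (18) had 1 rise each and 0 falls. Immediate early genes had 1 fall among 27.

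Metabolic and stress lists had single members that moved clearly. Me1, the malic enzyme that supplies NADPH for lipid synthesis, was higher by 0.84 (adjusted p = 0.000883), and Lpin1, a phosphatidate phosphatase, fell by 0.75, within 28 fatty acid and phospholipid synthesis genes that had 2 rises and 1 fall. Fatty acid oxidation had 2 rises among 25. Cth, a cysteine-making enzyme, was higher by 0.64 (adjusted p = 0.00834) as 1 of 3 rises among 24 ATF4 and amino acid response genes. Apoa1, the main protein of high density lipoprotein, was higher by 1.29, with its other probe sets at 1.5, 1.31 and 1.42, and its list of 39 had 3 rises and 1 fall. Translation initiation had 3 rises and 1 fall among 47, and lysosome and autophagy genes 1 of each among 48. The shares higher in these metabolic and stress lists ran from 2.08% to 12.5%, against 3.70% of all genes. The shares lower ran from 0% to 3.57%, against 1.25%.

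Immune lists held few calls each, most at shares of higher genes above that of all genes. Igtp, an interferon-induced GTPase, was at 8.94, 8.71 and 8.92 against 7.87, 8.27 and 8.09 (1.71-fold, adjusted p = 0.00317), and was above Ednrb null by 0.75 (adjusted p = 0.00329). The 34 interferon response genes had 3 rises and 0 falls (8.82% against 3.70% of all genes), and 1 rise without Ednrb NCC null 5 or 6 or wild type 1B or 1C and with the Y-linked covariate. Complement and coagulation had 3 rises among 38 (7.89%), with the clotting inhibitor Tfpi at 0.72. Antigen processing had 2 rises and 1 fall among 34 (5.88% and 2.94%), and NF-kB and acute phase genes 2 rises among 27 (7.41%). Without Ednrb NCC null 6, the complement, antigen and NF-kB lists had 1, 0 and 0 rises. Chemokines and interleukins had 1 rise among 116 (0.862%, below the share of all genes), and 2 among 17 without the dimmest 40% of genes. Macrophage markers had 3 rises among 18 (16.7%, median 0.32), and 16 of them lay above 0. The list had 1 rise without Ednrb NCC null 5 or 6 or wild type 1B and 6 without wild type 1D. Pf4, platelet factor 4, kept its call in every setting, at 8.89, 9.10 and 9.19 against 7.72, 7.90 and 8.30. Their summed intensity overlapped, at 13345 to 16223 in Ednrb NCC null and 13456 to 17115 in wild type.

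The remaining structural and signalling lists had shares of calls on both sides of those of all genes (3.70% higher and 1.25% lower). Vesicle transport and Golgi genes had 11 rises and 1 fall among 179 (6.15% and 0.56%), among them the secretory granule protein Vamp8 at 0.70, but 5, 3 and 2 rises without Ednrb NCC null 2, 5 or 6, 2 and 3 without wild type 1B or 1C and 2 with the Y-linked covariate. Small GTPases and their regulators had 7 rises and 2 falls among 188, and kinases and phosphatases 2 and 4 among 192. Microtubule proteins had 1 rise and 2 falls among 94. Cadherins had 3 and 3 among 70 (4.29% each way), and integrins, syndecans and glypicans 2 and 2 among 34 (5.88% each way). Within these, Cdh6 fell by 0.92, the neuronal kinesin Kif5c by 0.96 and Rab40b by 1.02, and Rgs7 rose by 0.83. Other probe sets gave -0.14 for Cdh6, -0.79, -0.17 and -0.19 for Kif5c, and -0.16 for Rab40b. Sodium, calcium, chloride and TRP channels had 2 rises and 1 fall among 94, pumps and ABC transporters 3 and 1 among 96, cilia 1 and 1 among 128, FGF signalling 2 rises among 40, insulin signalling 1 rise among 29 and aquaporins and gap junctions 1 rise among 27. Angiogenesis had 1 fall among 25 (4%, median -0.14), with 20% of its members above 0. Hippo-YAP targets had 1 fall among 21 (4.76%, median -0.12), with 28.6% above 0, against 56.0% of all genes. These medians lay near the -0.13, -0.13 and -0.12 of the Hedgehog, Notch and Wnt lists. Imprinted genes had 2 falls among 30 (6.67%, median -0.01), with Asb4 at -1.11.

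Other cell types were checked for tissue that dissection can bring along. Crest markers had 5 falls among 15 (median -0.74), neurons 3 among 22 (-0.32) and glia 2 among 10 (-0.04), with 0 rises in the 3 lists. Insm1, a factor of neurons and endocrine cells, fell by 1.44 outside these lists. Mesothelial markers had the highest median of any list, 0.84, with 10 of 10 above 0 and 2 rises. Their summed intensity was 21609 to 24401 in Ednrb NCC null, 15401 to 16799 in wild type and 14362 to 18577 in Ednrb null. The Ednrb NCC null arrays thus overlapped neither group, as for epithelium, with which the list shares Krt8 and Krt19. The mesothelial median was 0.49 without wild type 1B, and there were 0 rises without Ednrb NCC null 5 or 6. Smooth muscle had 2 rises and 1 fall among 13 (median 0.25). The embryonic globin gene Hbb-bh1, the single call among 8 red cell genes, was at 9.20, 9.20 and 9.21 against 7.89, 8.55 and 8.11, and at 10.34 ± 0.14 in Ednrb null. Liver and pancreas markers had 2 rises among 11, both of genes that gut also expresses (Apoa1 and Ttr), and cartilage 1 fall among 9 (Col2a1). There were 0 calls in the lists of Cajal cells, fibroblasts, endothelium, striated muscle, urothelium, kidney and gonad, lymphocytes and mast cells, and fat cells, where limma gave an unadjusted p under 0.05 for 13 of 86 genes. The part of these cell types in the differences above was not tested.

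Called genes lay on all chromosomes compared and in all bins of brightness, at unequal shares. The share called higher ran from 2.44% on chromosome 10 to 5.56% on chromosome 16 of the GRCm38.p6 assembly (3.70% of all genes). The share lower ran from 0.54% on chromosome 8 to 2.34% on chromosome 14 (1.25% of all genes). Whether regions carried with the mutated allele add to these shares was not tested. In 48 places adjacent tested genes were called in the same direction, 99 genes in all, 41 of these runs higher and 7 lower. Of the 450 called genes with further probe sets, 79.4% of the 796 other probe sets had the same sign and 42.5% also at least 0.5 times the size. Among the 403 within 2 log2 units of the brightest, those shares were 85.6% and 57.6%. Of the dimmest 25% of genes 1.08% were called higher, against 3.61% to 5.26% in the brighter bins of the same size.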

How the data were processed

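Affymetrix MOE430 version 2 arrays were hybridised with cRNA made from 150 ng of terminal colon RNA, per the labels' protocols. The deposited values were intensities, 1 per probe set and array, computed by the authors by RMA (the tool is named in the submitters' processing notes); no source used here gives a version or probe definition. They were linear, from 5.69 to 61637, and were converted to log2 with no pseudocount, filter or further normalization. RMA shrinks dim differences, and the folds of dim genes are therefore too small.

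The arrays carried 45101 probe sets, including 64 controls. GEO's platform annotation gives 1 gene for 34945 of them and several for 932, and does not list 9160. The brightest probe set naming 1 gene alone gave 18193 genes, 18032 of them matched by Entrez ID to RefSeq (GRCm38.p6). Group means were fitted over all 9 arrays with limma 3.58.1 in R 4.3.3 (lmFit, eBayes, 2-sided, Benjamini-Hochberg over 18193 genes, called at an adjusted p under 0.05). Arrays have no count depth; their number limits the precision. Tested on simulated data for this comparison over 18193 genes, 200 of them changed, the fit recovered 67.2% of genes changed 1.5-fold, 95.5% at 2-fold and 100% at 4-fold, with 10 false calls. The simulated noise was independent between genes and arrays. It held no shifts shared by many genes and no uneven Y-linked levels, so these rates may not hold for the real arrays.

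The gene lists, the comparison and the naming rule were chosen with earlier results of these data known. The rule takes Ednrb, the called genes with non-overlapping arrays that rose most (25) and fell most (25), up to 6 called members of each functional list by smallest p (2 where none is called), and called members and defining markers of cell type lists. Lists are described by counts and medians beside all genes. Alternatives were other normalizations, filters, fits, covariates and probe set rules, and leaving out each array. Promoters came from RefSeq (GRCm38.p6).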

Additional observations from a re-analysis of the deposited data

Results flagged for a closer look

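Among the 10092 probe sets that name several genes or none, which the comparison by gene leaves out, 351 (3.48%) passed an adjusted p under 0.05 between Ednrb NCC null and wild type, 110 of them higher and 241 lower. They drew attention because they lie outside the measured genes. Their direction split was the opposite of that of the named genes, of which 674 were higher and 228 lower. With every probe set tested on its own, 930 probe sets were higher and 681 lower.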

How the results depend on the processing

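With every probe set tested on its own, those naming several genes or none included, 1611 probe sets passed, 930 higher and 681 lower, in place of 902 genes. The count of 902 genes was 536 with Y-linked expression in the model, 1550 at an adjusted p under 0.10, 593 when wild type 1C and Ednrb NCC null 2 were both dropped, and 116 with a log2 difference of at least 1. With any 1 array left out it ranged from 268 to 1099, the higher genes from 172 to 888 and the lower from 96 to 244. The 674 higher genes were 366 with the Y-linked covariate, 354 with both of those arrays dropped, 1152 at an adjusted p under 0.10, 992 with array weights, 480 with only the 2 groups compared and 79 at a log2 difference of at least 1. The 228 lower genes were 398 at an adjusted p under 0.10 and 37 at a log2 difference of at least 1. Of 320 named genes, 3 reversed, all when the probe sets of each gene were averaged: Ctse to -0.27, Atp6v1h to -0.053 and Sdc4 to 0.40. The cause of these changes was not tested. No paired analysis was possible because the groups share no replicate numbers. Signal over background limits the dimmest genes.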
